A study of Mus musculus with 6 samples.

Results

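Macrophages and other leukocytes carry transcripts that the cells of the lens, epithelial cells and fibre cells, are not known for. The genes described here are 30 such markers, chosen by name: immune receptors and their adaptor proteins, complement C1q, integrins, lysosomal and class II histocompatibility genes. A gene was measured by the array probes whose RefSeq accession belongs to it, and the brightest probe that passed the filter stood for the gene. Of the 30 genes, 29 had at least 1 of 37 probes, among 20659 named genes on the array. Cd68 was not matched to a probe and has no value here. The test took genes well above background on all arrays of at least 1 genotype, which kept 16 of the 30 markers and 12783 genes in all. The other 13 markers with a probe were too dim on 1 or more arrays of both genotypes and are described without a test.

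RNA came from lenses of mice aged 3 months. The knock-in mice carried the W151C change in βB2-crystallin, cysteine for tryptophan at codon 151 of Crybb2, made with CRISPR/Cas9 (3 arrays, numbered 1, 2 and 4 in the labels), and wild type mice of the same age were the controls (3 arrays, numbered 1, 2 and 3). The labels call the arrays biological replicates. Strain, zygosity, the number of founder lines and the number of animals per array are not stated in the labels, so a p-value reflects only how far the arrays of a genotype scatter, and that scatter may be technical. All values are log2 signals relative to the 75th percentile of their array, so 0 is that percentile and 1 unit is 2-fold, and probes of different genes are not compared in level.

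Microglia, the hyalocytes of the vitreous and the resident macrophages of the ciliary body are myeloid cells of the tissues around the lens, which itself has no blood vessels and is enclosed by a capsule. Their identity depends on the transcription factor PU.1, the product of Spi1, and on the receptor for colony-stimulating factor 1. TREM2 binds lipids and debris at the surface of macrophages and signals through the adaptor TYROBP, and C1q starts the classical complement pathway. In RNA of a whole tissue, more cells of a type and more RNA per cell cannot be told apart.

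The spot signal had a 75th percentile from 167 to 201 on knock-in and from 120 to 698 on wild type arrays, 698 being that of wild type array 3. Per the scan identifiers in the file headers, the knock-in arrays shared scan 1, and wild type arrays 1 and 2 shared scan 2. Wild type array 3 was alone in scan 3, on another day. Arrays of the same scan are taken here as arrays of the same slide, since slide names were not read. Slide and genotype therefore cannot be told apart. Lens markers were present throughout: 11 of 11 lens fibre genes with a probe and 9 of 10 lens epithelial genes were well above background on all 6 arrays. Their levels differed between genotypes. Of the 11 fibre genes 6 were lower and none higher (7 lower and 0 higher at an unadjusted p under 0.05 in limma), with a median of -0.95: Birc7 differed by -5.24, Lctl by -2.38, Lim2 by -2.35 and Crybb1 by -1.51 (adjusted p from 5.64e-05 to 0.00298). Of the 10 epithelial genes 1 was higher, Pdpn at 1.56 (adjusted p = 0.000769), and 3 were lower, Aqp5 at -1.66, Foxe3 at -1.11 and Pitx3 at -0.59 (adjusted p from 0.00184 to 0.0485). The part of these shifts in the marker differences was not tested. Rod photoreceptor genes stood apart on knock-in array 4, where the summed signal of 6 retinal markers was 22.0 times the 75th percentile of the array, compared with 1.41 for knock-in array 1, 1.18 for knock-in array 2 and 0.307 to 0.425 for wild type.

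Macrophage markers were more often detected in knock-in lenses. Of the 29 markers with a probe, knock-in arrays 1, 2 and 4 showed 19, 19 and 17 well above background, and wild type arrays 1, 2 and 3 showed 12, 15 and 11. Over all named genes the share detected ran the other way, at 53.9%, 60.3% and 62.1% on the knock-in arrays and 64.5%, 63.1% and 65.0% on the wild type arrays. The markers nevertheless split: 6 passed the test as higher, Trem2, C1qc, Tyrobp, Ctss, Cd52 and Lyz1, 1 as lower, Itgam, and 9 did not pass. Of all 12783 genes tested, 13.3% passed as higher and 12.6% as lower. The same 6 markers had every knock-in array above every wild type array and the same 1 the reverse, against 22.7% and 23.1% of all genes (45.9% in either direction). Among the 16, 6 (Tyrobp, C1qa, C1qc, Cd52, Ctss and Trem2) entered the test through the knock-in arrays alone, a route that favours genes higher in knock-in lenses. The 10 that were well above background in both genotypes had a median difference of -0.35, with 1 higher and 1 lower, against a median of -0.04 over all genes tested.

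**Figure D1:**
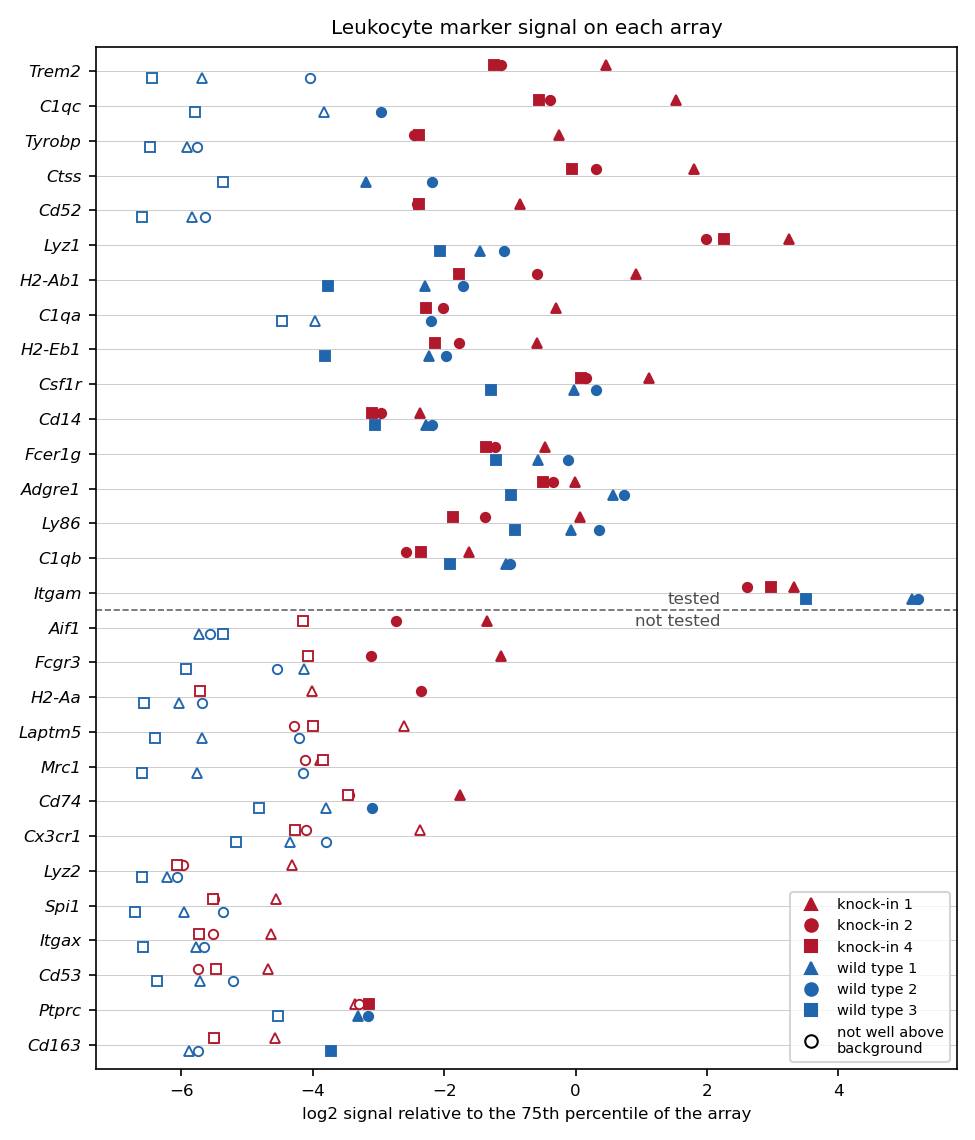
Signal of the 29 markers with a probe on each array, as log2 relative to the 75th percentile of the array (x axis), with knock-in arrays in red above wild type arrays in blue and open symbols for arrays where the probe was not well above background. The genes at the top have all knock-in arrays to the right of all wild type arrays, and knock-in array 1 (red triangle) is the farthest right of the knock-in arrays in each tested marker.

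Promoter stretches of 3 of these markers are shown because the text below counts a PU.1 motif in them. Each is the 250 bases before the gene start in the RefSeq tables of build GRCm38.p6, with the PU box GAGGAA, on either strand, in capitals: Trem2 at chr17:48346151-48346400, plus strand; Ctss at chr3:95526536-95526785, plus strand; and Lyz1 at chr10:117292869-117293118, minus strand, which has none.
Trem2: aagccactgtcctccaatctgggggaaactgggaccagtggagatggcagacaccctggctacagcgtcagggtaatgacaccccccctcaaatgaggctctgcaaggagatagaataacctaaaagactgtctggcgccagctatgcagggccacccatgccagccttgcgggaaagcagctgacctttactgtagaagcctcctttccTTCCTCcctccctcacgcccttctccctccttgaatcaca
Ctss: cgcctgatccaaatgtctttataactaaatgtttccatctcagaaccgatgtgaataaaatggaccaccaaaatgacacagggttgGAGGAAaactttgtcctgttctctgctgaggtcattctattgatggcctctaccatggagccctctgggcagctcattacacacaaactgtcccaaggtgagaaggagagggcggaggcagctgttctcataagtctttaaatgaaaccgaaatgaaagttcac
Lyz1: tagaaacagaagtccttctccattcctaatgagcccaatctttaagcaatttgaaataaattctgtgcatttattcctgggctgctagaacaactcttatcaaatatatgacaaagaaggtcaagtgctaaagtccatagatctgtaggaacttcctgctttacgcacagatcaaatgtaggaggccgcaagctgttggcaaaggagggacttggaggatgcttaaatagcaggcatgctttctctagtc

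Tyrobp and Trem2, an adaptor with an immunoreceptor activation motif and the receptor that signals through it, were both below background in every wild type lens and above it in every knock-in lens. Tyrobp lay at -0.25, -2.46 and -2.38 in knock-in lenses 1, 2 and 4, and at -5.91, -5.77 and -6.48 in wild type lenses 1, 2 and 3. Trem2 lay at 0.47, -1.13 and -1.24 in knock-in lenses, against -5.68, -4.04 and -6.44 in wild type lenses. The groups did not overlap for either gene, and knock-in array 1 was the highest for both. With wild type below background only a lower bound of the fold can be given: Trem2 was at least 10.7-fold higher (adjusted p = 0.00393) and Tyrobp at least 5.11-fold higher (adjusted p = 0.00291). Together with Cd52 they were 3 of 16 markers that were above background on all knock-in and no wild type arrays, a pattern of 0.798% of all genes tested. The reverse pattern, in 4.02% of all genes, was shown by 0 of 16 markers.

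Related receptor genes gave no call. Fcer1g, the other adaptor of this kind and a subunit of Fc receptors, was well above background in all lenses, at -0.46, -1.23 and -1.37 in knock-in and -0.58, -0.11 and -1.21 in wild type lenses. Its groups overlapped, and the difference of -0.39 (95% confidence interval -1.21 to 0.44, adjusted p = 0.45) did not pass. Fcgr3, a receptor for immunoglobulin G that uses the Fcer1g chain, was above background on knock-in arrays 1 and 2 only, at -1.14 and -3.11, against -4.07 on knock-in array 4 and -4.14, -4.55 and -5.92 in wild type lenses. Every knock-in value lay above every wild type value, by 2.09 on average. Knock-in array 4 and all wild type arrays were below background, so this order and size are set partly against background. Fcgr3 was not tested, since 1 knock-in array did not detect it.

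The 3 chains of C1q, encoded by adjacent genes on chromosome 4 and assembled into 1 protein, gave different results. C1qc lay at 1.52, -0.39 and -0.56 in knock-in lenses, against -3.83, -2.96 and -5.80 in wild type lenses, and only wild type array 2 was above background. It rose by 4.39 (SE 0.82, adjusted p = 0.00977), a size set partly against background. C1qa lay at -0.30, -2.01 and -2.27 in knock-in and -3.97, -2.20 and -4.46 in wild type lenses. Here knock-in array 4 lay below wild type array 2, and the difference of 2.02 (interval 0.34 to 3.69, adjusted p = 0.0776) did not pass, though it did without wild type array 2 (2.69, adjusted p = 0.0271) and with median scaling (1.98, adjusted p = 0.00261). C1qb pointed the other way, at -1.63, -2.59 and -2.35 in knock-in and -1.07, -0.999 and -1.91 in wild type lenses. Its difference of -0.86 (interval -1.66 to -0.06, adjusted p = 0.105) did not pass over all arrays. C1qb was above background on every array, and it passed as lower within the shared scan day (-1.16, adjusted p = 0.022) and with median scaling (-0.90, adjusted p = 0.0358).

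Cathepsin S and lysozyme, enzymes of the macrophage lysosome and its secretions, rose. Ctss lay at 1.81, 0.30 and -0.05 in knock-in lenses, against -3.19, -2.18 and -5.37 in wild type lenses, of which array 3 was below background, and rose by 4.27 (SE 0.84, adjusted p = 0.0118). Lyz1 lay at 3.24, 1.99 and 2.26 in knock-in lenses, against -1.46, -1.09 and -2.07 in wild type lenses. It was the only riser above background on all 6 arrays, so its difference of 4.03 (SE 0.38, adjusted p = 0.000752) is not set against background. Lyz1 and Lyz2, neighbours on chromosome 10, are close paralogs, and probes can bind both transcripts. The Lyz2 probe, for the lysozyme gene used to mark mouse macrophages, was not above background on any array, at -4.32, -5.97 and -6.07 in knock-in and -6.22, -6.06 and -6.61 in wild type lenses. Which lysozyme the Lyz1 signal comes from is therefore uncertain.

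Cd52, a small glycoprotein at the surface of lymphocytes and myeloid cells, was the riser among the pan-leukocyte membrane proteins. It lay at -0.85, -2.41 and -2.39 in knock-in lenses and, below background, at -5.83, -5.63 and -6.60 in wild type lenses, which makes it at least 4.49-fold higher (adjusted p = 0.00144). The others of that class gave little signal. Ptprc, which encodes CD45 and defines nucleated blood cells, lay at -3.36, -3.30 and -3.14 in knock-in and -3.31, -3.15 and -4.54 in wild type lenses, above background on knock-in array 4 and wild type arrays 1 and 2. The tetraspanin Cd53 and the lysosomal protein Laptm5 were above background on no array. So were Spi1, for PU.1, which ranged from -5.52 to -4.56 in knock-in and -6.70 to -5.37 in wild type lenses, and Itgax, Mrc1 and Cx3cr1, for CD11c, the mannose receptor and the fractalkine receptor. In all, 7 of 29 markers were not above background on any array. Aif1, the calcium-binding protein IBA1 used to stain macrophages, was above background on knock-in arrays 1 and 2, at -1.35 and -2.74, and not on knock-in array 4, at -4.15, nor in wild type lenses, at -5.73, -5.57 and -5.37.

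**Figure D2:**
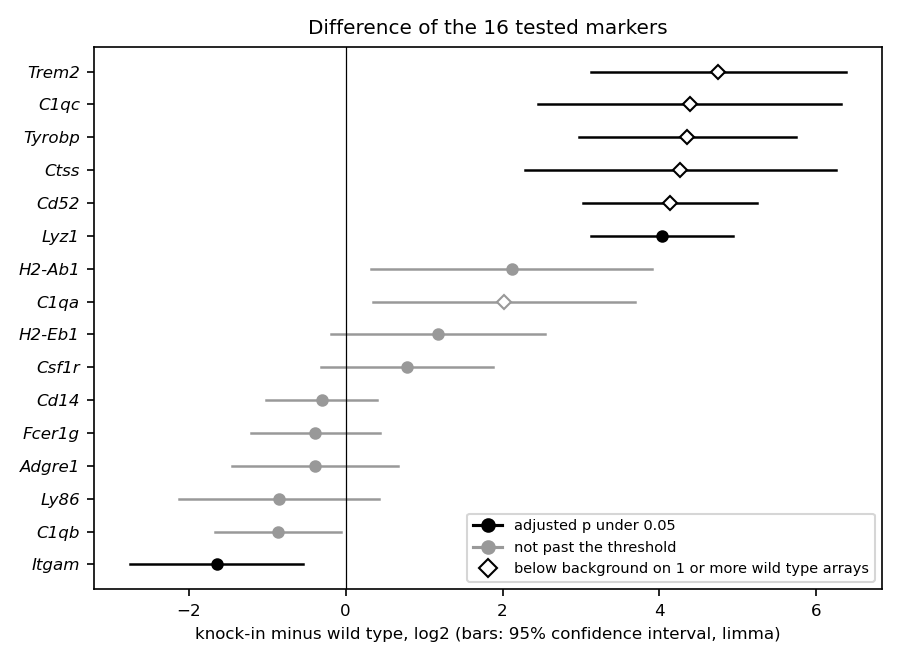
Knock-in minus wild type difference of the 16 tested markers on the log2 scale (x axis), with bars for the 95% confidence interval of the limma fit, black for genes past the threshold, and open diamonds for genes below background on at least 1 wild type array, whose size is set partly against background. The 6 risers lie between 4.03 and 4.75, and Itgam, at -1.65, is the only one past the threshold on the lower side.

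Receptors that mark the macrophage surface did not pass. Csf1r, the receptor for colony-stimulating factor 1, lay at 1.11, 0.15 and 0.08 in knock-in and -0.03, 0.31 and -1.29 in wild type lenses, a difference of 0.79 (interval -0.31 to 1.88, adjusted p = 0.252). Its second detected probe had the opposite sign, with a mean of -0.93 in knock-in and 0.17 in wild type lenses. Adgre1, which encodes the macrophage marker F4/80, also had probes that disagree. The brighter one, which stood for the gene, lay at -0.01, -0.35 and -0.49 in knock-in and 0.57, 0.74 and -0.99 in wild type lenses (difference -0.39, adjusted p = 0.556). The dimmer one lay at -0.40, -2.16 and -2.31 in knock-in lenses and was below background in all wild type lenses, at -4.23, -4.19 and -6.29. By the dimmer probe the knock-in level was higher by a factor of at least 5.37 (adjusted p = 0.0156 in a fit of all probes). The brighter probe passed as lower within the shared scan day (-0.94, adjusted p = 0.00907). Cd14, the co-receptor for bacterial lipopolysaccharide, and Ly86, the MD-1 protein that binds an orphan Toll-like receptor, were above background on all arrays. They differed by -0.31 (adjusted p = 0.489) and -0.85 (adjusted p = 0.287), and neither passed. Cd163, a scavenger receptor for haemoglobin, was above background on wild type array 3 alone.

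Itgam, the integrin CD11b of myeloid cells, was the marker that fell. It lay at 3.33, 2.60 and 2.97 in knock-in lenses, against 5.12, 5.21 and 3.51 in wild type lenses, a fall of 1.65 on the log2 scale (SE 0.47, adjusted p = 0.0404). Its size stayed between -1.83 and -1.35 on leaving out any single array other than wild type array 3, though adjusted p then lay between 0.0815 and 0.135. It passed within the shared scan day (-2.20, adjusted p = 0.00125), with median scaling (-1.68, adjusted p = 0.000727) and with normexp (-1.49, adjusted p = 0.017), but the random slide block ended the call (-1.47, adjusted p = 0.238). The other probes of the gene did not pass. Those probes were dimmer on every array and had means of -2.03 and -3.18 in knock-in and -2.08 and -2.53 in wild type lenses, differences of 0.05 (adjusted p = 0.919) and -0.65 (adjusted p = 0.216) in the fit of all probes.

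The class II histocompatibility genes, which present antigen on dendritic cells, B cells and activated macrophages, lay higher in knock-in lenses without passing the test. H2-Ab1 lay at 0.92, -0.58 and -1.77 in knock-in and -2.30, -1.72 and -3.77 in wild type lenses, a difference of 2.12 (interval 0.33 to 3.90, adjusted p = 0.0817). H2-Eb1 lay at -0.58, -1.78 and -2.14 in knock-in and -2.24, -1.97 and -3.82 in wild type lenses, a difference of 1.18 (interval -0.18 to 2.54, adjusted p = 0.175). Each gene had a knock-in array below a wild type array. Both passed with median scaling (adjusted p = 0.00252 for H2-Ab1 and 0.0363 for H2-Eb1), and H2-Ab1 passed without knock-in array 4 (2.76, adjusted p = 0.0484). H2-Aa was above background on knock-in array 2 alone, and Cd74, the invariant chain that escorts class II molecules, on knock-in array 1 and wild type array 2.

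The risers held on the shared scan day, in which the 3 knock-in arrays are set against wild type arrays 1 and 2: Trem2, Tyrobp, Cd52, Lyz1, C1qc and Ctss differed there by 4.23, 4.14, 3.85, 3.77, 3.59 and 3.37 (adjusted p from 0.00117 to 0.00786). With slide as a random block, Lyz1 (adjusted p = 0.0159) and Cd52 (adjusted p = 0.0323) passed, while Trem2 (4.92, adjusted p = 0.0627), Tyrobp (4.42, adjusted p = 0.0692), Ctss (4.55, adjusted p = 0.0906) and C1qc (4.64, adjusted p = 0.0918) did not. Those 4 differences were at least as large as without the block, with larger standard errors. Of all genes, 25.9% passed without that block in either direction, 3310 genes, and 620 genes passed with it. Background correction by normexp, which adds an offset and shrinks dim genes by construction, gave differences from 0.99 for Tyrobp to 3.21 for Lyz1, all 6 past the threshold.

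Knock-in array 1 stood apart for the markers. All 16 tested markers were highest there among the knock-in arrays, where 40.3% of all genes detected on the 3 knock-in arrays were. Its excess over the mean of knock-in arrays 2 and 4 had a median of 1.46, from 0.41 for Adgre1 to 2.17 for Tyrobp, against a median of -0.01 over 10916 genes. The excess was above 1 for 10 of the 16 markers and for 1.24% of all genes. In the wild type lenses, array 2 was the highest for all 16 markers and for 28.4% of all genes. Tyrobp, Cd52 and Trem2 were below background on every wild type array, so their order there is one of background values. Without knock-in array 1 the 6 risers still passed, at 4.20 for Trem2 (adjusted p = 0.0185), 3.72 for C1qc (adjusted p = 0.0373), 3.71 for Ctss (adjusted p = 0.0497), 3.66 for Lyz1 (adjusted p = 0.00384), 3.63 for Tyrobp (adjusted p = 0.00282) and 3.62 for Cd52 (adjusted p = 0.00384).

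Genes of the ciliary body, the tissue that adjoins the lens equator, followed the same arrays. A list of 18 such genes was picked after their values were seen, so it gets no test. Among them Optc, for the vitreous protein opticin, lay at 4.47, 2.70 and 2.73 in knock-in and 0.84, 1.75 and -0.76 in wild type lenses. Col9a1, a collagen of the vitreous made by the ciliary epithelium, lay at 1.63, -0.02 and -0.44 in knock-in and -1.29, -0.06 and -2.48 in wild type lenses. Some of the list went the other way without passing, such as Aqp1, with a difference of -0.45 (adjusted p = 0.278). Aqp1 lay at 2.19, 3.04 and 3.21 in knock-in and 3.32, 3.34 and 3.12 in wild type lenses. Of the 17 genes of this list that were tested, 16 were highest on knock-in array 1 among the knock-in arrays, with a median excess of 1.76, and 13 were highest on array 2 among the wild type arrays. The knock-in minus wild type difference had a median of 1.67 over these 17 genes, of which 13 lay above 0 and 1 passed the test, beside a median of 1.60 over the 16 markers, of which 10 lay above 0. A further contrast left out knock-in array 1, the highest knock-in array for all 16 markers, and wild type array 3, their lowest wild type array. Between the remaining knock-in arrays 2 and 4 and wild type arrays 1 and 2, the ciliary list differed by a median of 0.37. The 16 markers differed by a median of 0.49 and all genes by 0.02. The markers were spread widely around that median, from -2.38 for Itgam to 3.67 for Trem2. The 6 risers, which were chosen by their rise, had a median of 3.36 there. The summed signal of the 18 genes, carried mostly by Ptgds at 5.54 or above on every array, was 71.1 to 123 times the 75th percentile in knock-in and 74.4 to 92.0 times in wild type lenses. The part of ciliary tissue in the marker differences was not tested. Retinal genes also lay higher in knock-in lenses, most of all on array 4. Gnat1, rod transducin, lay at -1.47, -1.12 and 3.13 in knock-in and -2.99, -4.06 and -3.20 in wild type lenses (adjusted p = 0.0588), and Nrl, a rod transcription factor, at -0.76, -1.36 and 3.04 in knock-in and -2.93, -4.75 and -3.79 in wild type lenses (adjusted p = 0.0354). Both separated the genotypes on every array, with array 4 the highest of the knock-in arrays, where the markers had array 1. The part of retinal tissue in the marker differences was not tested.

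**Figure D3:**
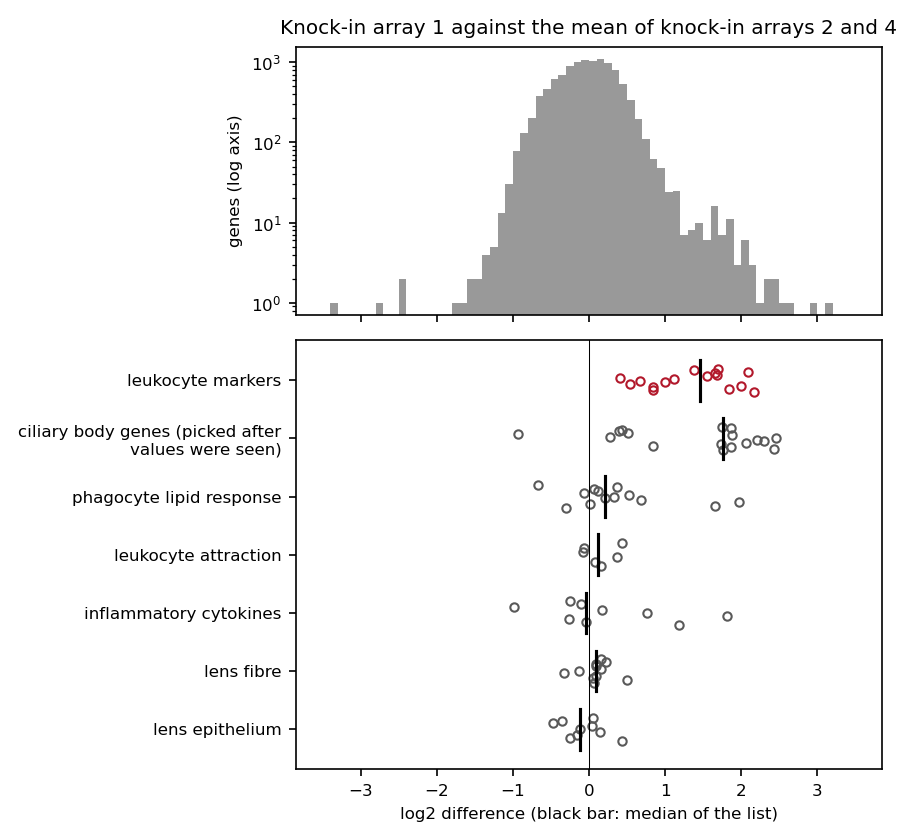
Log2 difference of knock-in array 1 from the mean of knock-in arrays 2 and 4 (x axis), as a histogram of the 10916 genes detected on all knock-in arrays (top, log axis) and by gene list (bottom, black bars for medians). The leukocyte markers, median 1.46, all lie right of 0, as do most ciliary genes, median 1.76, while chemokine and adhesion genes, median 0.11, lens fibre genes, median 0.09, and lens epithelial genes, median -0.12, lie around it.

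Further myeloid genes were mostly dim. Of 37 further genes of myeloid cells and leukocytes, 13 could be tested, with 1 higher and none lower (3 and 1 at an unadjusted p under 0.05 in limma) and a median of 0.14. That gene was Coro1a, an actin-binding protein of leukocytes, at -1.13, -2.47 and -2.56 in knock-in lenses and below background in wild type lenses, which makes it at least 3.80-fold higher (adjusted p = 0.0181). Of 10 genes of microglia and hyalocytes, 6 were tested: Olfml3 rose by 2.19 (SE 0.15, adjusted p = 0.000262) and Sall1 fell by 1.17 (SE 0.33, adjusted p = 0.04). Of the 14 genes that phagocytes raise when they take up lipid, 13 were tested, and 11 were higher, none lower, with a median of 1.48. Of all genes tested, 13.3% were higher. Of the 14, 10 were well above background on all 6 arrays, wild type included. Which cells carried these transcripts was not tested. The excess of knock-in array 1 had a median of 0.21 over the 13 genes, against 1.46 over the 16 markers. The membrane glycoprotein gene Gpnmb was at least 37.2-fold, Spp1, osteopontin, at least 12.4-fold and Axl, a receptor tyrosine kinase for apoptotic cells, at least 10.1-fold higher, all below background in wild type lenses (adjusted p from 0.000131 to 0.000658). The tetraspanin gene Cd63 rose by 1.48 (SE 0.17, adjusted p = 0.00138). Gpnmb lay at 0.97, 1.09 and 1.44 in the knock-in lenses, without the excess on array 1 seen for Trem2 or for Spp1, at 0.69, -0.58 and -1.35. Of 7 genes that control or assist class II expression, 3 were tested and none passed in limma, nor at an unadjusted p under 0.05.

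Genes that attract leukocytes rose without the array 1 excess. Of 14 listed, 6 were tested and 5 were higher, with a median of 2.49. The monocyte chemokine Ccl2 lay at 3.16, 2.93 and 3.09 in knock-in and 0.24, -0.07 and -0.60 in wild type lenses, a rise of 3.20 (SE 0.23, adjusted p = 0.000297). Ccl7 rose by 3.38 (SE 0.40, adjusted p = 0.00165), and Csf1, the growth factor for macrophages, by 1.78 (SE 0.21, adjusted p = 0.00182). Vcam1, an adhesion molecule for leukocytes, was at least 8.36-fold higher (adjusted p = 0.000171). The excess of knock-in array 1 had a median of 0.11 over the 6 genes, from -0.08 to 0.44. Of 14 inflammatory cytokine and NF-κB genes, 11 were tested, with 3 higher and 2 lower. Il6 was at least 4.58-fold higher (adjusted p = 0.000849), Bcl3 at least 23.5-fold higher (adjusted p = 3.79e-05), and Nfkbia rose by 0.63 (adjusted p = 0.0403). Il1b, the interleukin of activated macrophages, fell: it lay below background in knock-in lenses, at -4.61, -5.45 and -4.57, against -2.66, -2.71 and -2.86 in wild type lenses, at least 1.52-fold lower (adjusted p = 0.00189).

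Among markers of other blood cells, none that could be tested passed as higher. Of 12 T and natural killer cell genes with a probe, 7 were tested. None was higher (0 at an unadjusted p under 0.05 in limma). Cd8a passed the test on the lower side (adjusted p = 0.0477), but every knock-in array was below background and the wild type level was no higher than the lowest signal detectable there, so no fall can be bounded. Of 6 B cell, 8 neutrophil and 6 mast cell genes with a probe, only 1, 2 and 1 could be tested. None of these passed, nor did any at an unadjusted p under 0.05 in limma. Some of these probes were nevertheless well above background on all 6 arrays, among them Cd4, at 2.59, 2.26 and 2.15 in knock-in and 3.76, 3.42 and 2.02 in wild type lenses, and Csf3r, at 6.20 ± 0.31 in knock-in and 6.01 ± 0.42 in wild type lenses (SD, n = 3 each). What these signals come from was not tested, so detection by a probe is not read here as marking a cell type. Among the wild type arrays, array 3 was the lowest for all 10 markers of the present list that were detected in both genotypes. It was also the lowest for the 6 that entered through the knock-in arrays alone, which were below background there. The share over all genes was not counted, and array 3 was alone in its scan. This order is therefore not read as a trait of the markers.

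**Figure D4:**
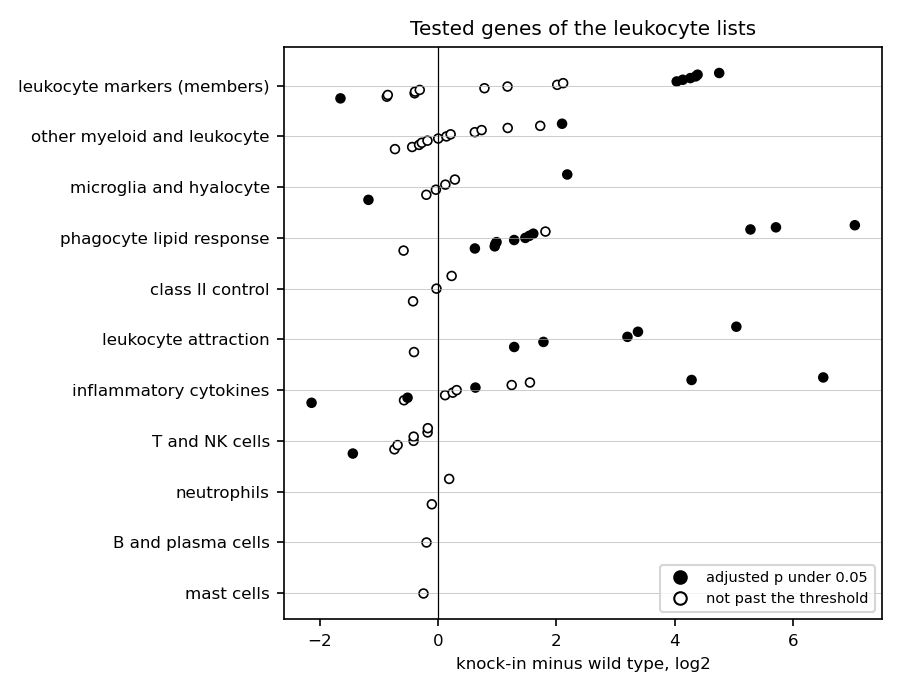
Knock-in minus wild type difference of every tested gene (points, x axis on the log2 scale) by gene list, filled where the adjusted p was under 0.05. The leukocyte markers range from -1.65 to 4.75, the phagocyte lipid list from -0.58 to 7.04, and no T cell, B cell, neutrophil or mast cell gene passes as higher.

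The promoters of the markers often held the PU box, the core of the sites that PU.1 binds. The RefSeq promoter table had an entry for 21 of the 30 markers. In the 250 bases before the gene start, 12 of the 21 (57.1%) held GAGGAA on either strand, against 25.9% of 27025 genes. Of the risers in the table, Trem2, Ctss and C1qc held 1 each and Lyz1 none, and Itgam, which fell, held 2. The match is a description of the letters in these windows, and Spi1 itself was not above background on any array.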

How the data were processed

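Cy3-labelled lens RNA was measured on Agilent arrays of 1 colour, per the labels. The deposited intensity of a spot is its processed signal, from which the scanner software run by the authors had removed background (Feature Extraction, version 11.0.1.1 in the file headers and 9.1 in the submitters' processing notes).

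The log2 signal minus the 75th percentile of 43020 non-control spots was taken, without outlier spots, and replicate spots were averaged. Detection of a probe (well above background) required at least 50% of its spots. Probes were named by RefSeq accession through a table of GRCm38.p6 (27234 of 39429 probes, 20659 symbols). The highest-mean probe that passed the filter represented a gene. limma 3.58.1 in R 4.3.3 (lmFit, eBayes) compared knock-in with wild type over 12783 genes, with Benjamini-Hochberg adjustment at 0.05, after a test on simulated data. A bound sets the bright group against, per dim array, whichever is higher of that probe's own signal and the array's lowest detected signal. The normexp alternative used median spot signals. A list's summed signal adds its probes on the linear scale. The number of arrays limits the precision. Members and lists were chosen with earlier results of these data known. Genes named are all 30 markers and, per other list, up to 4 with the smallest p past the threshold, or, for other cells, those detected on all arrays; ciliary genes were named after their values were seen. Alternatives covered scaling, background, filters, probe choice, flags, blocks and leaving out each array. Of these, 2 were added after seeing the data, the shared scan day and the fit of every probe. The excess of knock-in array 1 was not among the planned results. Nor was the contrast of knock-in arrays 2 and 4 with wild type arrays 1 and 2.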

Additional observations from a re-analysis of the deposited data

How the results depend on the processing

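Of 266 alternative values for the 16 tested markers, 264 kept their direction. The exceptions came with the mean of a gene's probes, which turned Adgre1 to 1.44 (adjusted p = 0.104) and Csf1r to -0.15 (adjusted p = 0.807). The 266 values are not all separate checks. The shared scan day is the same fit as leaving out wild type array 3. Scan day as a fixed term also sets that array aside, since it was alone on its day. The number of markers past the threshold, 7 (6 higher, 1 lower), was 11 (9 higher, 2 lower) with median scaling, 2 (1 higher, 1 lower) with probes above background on all 6 arrays, a filter that leaves 10 markers and removes 5 of the risers, and 2 (2 higher, 0 lower) with slide as a random block. The lower count was 0 without the filter and with the mean of a gene's probes, and 3 within the shared scan day or with scan day as a fixed term. At an unadjusted p under 0.05 in limma, the markers numbered 14 without the filter, 10 with the mean of probes and 7 with the random block, in both directions together. The marker median, 1.596, was -0.35 with probes above background on all arrays, 0.58 with normexp and 0.60 within the shared scan day. Leaving out 1 array gave 6 to 9 markers changed, 6 to 8 higher, 0 to 3 lower, and a median from 0.60 (without wild type array 3) to 2.56 (without knock-in array 4). Over all genes 3310 passed, against 2002 without the filter, 620 with slide as a random block, 5564 with scan day as a fixed term, 5661 within the shared scan day, and 1538 (without knock-in array 2) to 5661 (without wild type array 3) on leaving out 1 array. The 24 calls among the pathway lists were 15 with probes above background on all arrays, 13 with the random block, and 18 to 31 on leaving out 1 array.

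The genotypes share only the replicate numbers 1 and 2, and nothing in the labels says that a number marks a shared litter or day. Deviations from the group means correlated at 0.17 for number 1 and -0.22 for number 2. With the replicate number as a block, an array whose number occurs in only 1 genotype adds nothing to the contrast, which then rests on numbers 1 and 2. In that fit 5446 genes passed, and so did 10 markers, 7 as higher and 3 as lower. What signal over background limits is the 13 dim markers, for which no difference was tested, and the size of 5 of the 6 rises.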
